A study of Mus musculus with 4 samples.

Results

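Cytosolic ribosomal protein genes encode the protein part of the ribosome outside mitochondria. A list of 56 of them was examined, 33 for the large subunit (Rpl genes) and 23 for the small subunit (Rps genes). The measure was every probe set, a group of short array probes for one transcript, whose platform annotation gives 1 gene symbol equal to a listed gene. By that rule 35 of the 56 genes were measured, 16 of the large and 19 of the small subunit, through 80 of the 45101 probe sets on the array. The probe set with the highest mean log2 signal stood for each gene. Of these 35 genes, 34 passed the filter on low values and were tested among 12680 genes in all. The exception was Rps16, whose only probe set under this rule gave signals between 1.11 and 2.03.

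The RNA came from LSK cells (Lin-Sca-1+c-Kit+), the bone marrow fraction that holds blood stem cells and early progenitors. All came from C57BL/6 mice that carried a transplant of fetal liver cells and had received 6.5 Gy, a sublethal radiation dose. The transplanted cells were necdin null in 2 samples and wild type in 2 samples, each hybridized to 1 Affymetrix 3' expression array. All 4 samples share the transplant, the strain and the radiation, so neither the response to radiation nor that to the transplant can be read from them. The labels do not say whether the replicates came from separate animals or pools, so the p-values below measure only the spread between these arrays. The number of arrays limits the precision, and an exact permutation test of 2 against 2 cannot give a two-sided p below 0.333.

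A ribosome needs each of its core proteins in equal number, and their genes are transcribed at high rates from promoters of similar make. Their mRNAs begin with a tract of pyrimidines, the 5' terminal oligopyrimidine (TOP) element, through which mTORC1 signalling and the binding protein Larp1 set how well they are translated. Blood-forming cells are sensitive to their dose: loss of 1 copy of several of these genes causes Diamond-Blackfan anaemia, and ribosomal proteins that are left outside the ribosome can bind Mdm2 and stabilize p53. Stem cells make protein at a low rate compared with more mature progenitors. Necdin, encoded by the imprinted gene Ndn, is a growth-suppressing protein that can bind p53 and E2F1.

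Ndn itself gave 55.4 and 105.0 on the necdin null arrays against 252 and 256 on the wild type arrays, lower on both but not past the limma threshold (adjusted p = 0.9985). Necdin null replicate 2 stood apart from the other arrays in 3 measures. Its Gapdh 3' to 5' signal ratio, a sign of RNA and labelling quality, was 15.8 against 9.96 to 11.7 on the others, and that of Actb was 14.5 against 9.21 to 12.4. On every array the 3' probe sets gave far more signal than the 5' ones, so this bias was not limited to necdin null replicate 2. Of its summed signal, 37.4% lay in the brightest 1% of probe sets, against 28.9% to 30.6% on the others. Xist (76.8) was low on this array against at least 4841 elsewhere, and wild type replicate 1 alone had a low signal of the Y-linked gene Eif2s3y (32.6 against at least 1974). The median over the members and the largest differences are therefore also given without necdin null replicate 2.

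The ribosomal protein genes were among the brightest on the array. Of the 34 tested, 27 had a mean log2 signal of 14 or above, and 24 of the 100 genes with the brightest main probe sets were members, with 6 further ribosomal protein genes beside them. The main probe sets of Rpl13a, Rps18 and Rps29 were the brightest of the list, and those of Rps16, Rps27 and Rpl12 the dimmest. Brightness depends on the probes as well as on the transcript, so this order is one of probe sets and not of mRNA amount. The 34 main probe sets together held 2.32% and 3.21% of the summed signal of necdin null replicates 1 and 2, and 2.41% and 2.51% of that of the wild type replicates. The value of necdin null replicate 2 lay above the other arrays, and that of necdin null replicate 1 lay below both wild type arrays.

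The other 21 genes had no probe set with their symbol alone. For 20 of these, probe sets on the array list their symbol together with others, and such a probe set is not assigned to one gene here. Over the whole list there were 89 probe sets that join a listed symbol to others, and 43 of the 89 annotations include a symbol with the -ps ending of pseudogenes. Taken as an unnamed group, 85 of these passed the filter. Their median log2 difference, necdin null minus wild type, was 0.25. Measured from each probe set's mean over the 4 arrays, their medians were -0.20 and 0.46 for necdin null replicates 1 and 2, and -0.17 and -0.09 for the wild type replicates. The same array was high as in the named members described next.

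RefSeq windows of 300 bases around the annotated start (assembly GRCm38.p6) were found for 46 of the 56 genes, of which 29 were tested. The 30 bases around the start, 15 on each side, are printed for members described below, to show how far they share the TOP element, 5' to 3' on the gene's strand. Capitals mark the longest run of pyrimidines (C or T), the place where a TOP element is looked for. Where a gene has several windows, the one with the longest run is printed, so these sequences lean towards long runs. A run can also lie before the annotated start.
Rpl10a (chr17:28328456-28328485, + strand): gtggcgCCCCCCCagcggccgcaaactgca
Rpl12 (chr2:32961697-32961726, + strand): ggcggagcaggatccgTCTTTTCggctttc
Rpl13a (chr7:45128731-45128760, - strand): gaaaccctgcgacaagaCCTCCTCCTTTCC
Rpl14 (chr9:120571502-120571531, + strand): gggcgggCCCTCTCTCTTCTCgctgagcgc
Rpl35 (chr2:39005117-39005146, - strand): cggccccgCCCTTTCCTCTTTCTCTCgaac
Rps6 (chr4:86857353-86857382, - strand): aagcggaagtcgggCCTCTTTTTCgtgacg
Rps10 (chr17:27635230-27635259, - strand): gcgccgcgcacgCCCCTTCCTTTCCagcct
Rps18 (chr17:33955651-33955680, - strand): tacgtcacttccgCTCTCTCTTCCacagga
Rps4x (chrX:102189377-102189406, - strand): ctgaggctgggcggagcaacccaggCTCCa

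A run of at least 8 pyrimidines within these 30 bases was found in 38.9% of the 54 windows of the listed genes (some genes have several), against 12% of all 32851 windows of the same length. The longest runs printed here, in Rpl35, Rpl14, Rps10 and Rpl13a, were of 18, 14, 13 and 13 bases. In Rpl10a and Rpl12 the longest run was of 7 bases, and in Rps4x it was of 4. The run of Rpl10a lies wholly before the annotated start.

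Over the full windows of 300 bases, on both strands, the letters CCGGAAG, a core of ETS family binding sites, were present in 35.2% of the members' windows against 8.86% of all windows. AAGATGG, a core of YY1 sites, was present in 13% against 6.34%, and TATAAA, the TATA box, in 5.56% against 13.6%. These counts describe letters in the windows, where the annotated start may be off by some bases.

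No ribosomal protein gene passed the limma test between necdin null and wild type cells. Log2 differences were above 0 for 28 of the 34 genes, against 45.9% of all genes tested, and their median was 0.23, against -0.03 over all genes. This direction came from 1 array. Necdin null replicate 2 had the highest signal of the 4 arrays for 28 of 34 genes, and necdin null replicate 1 had the lowest for 26 of 34, so that for 23 genes the necdin null arrays lay on either side of both wild type arrays. Over all genes tested, 25.1% were highest on necdin null replicate 2 and 7.89% had this outer position of both necdin null arrays. These shares depended on brightness. Among 198 other genes at a mean log2 signal of 14 or above they were 96.5% and 49.0%, against 100% and 81.5% of the 27 members in that range. In bulk samples such as these, a different mix of cells and a different amount of RNA per cell cannot be told apart.

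On the log2 scale, measured from each gene's own mean, the members' median was -0.22 and 0.47 on necdin null replicates 1 and 2, and -0.17 and -0.07 on wild type replicates 1 and 2. The median ratio of necdin null replicate 2 to necdin null replicate 1 was 1.59-fold, a log2 difference of 0.67, whereas the wild type arrays differed by 0.08. The spread within the necdin null group was thus larger than the median difference between the groups. Without necdin null replicate 2, only 3 of 34 genes were higher in the remaining necdin null array, with a median log2 difference of -0.11. Without necdin null replicate 1, 29 of 34 genes were higher with a median of 0.60. This sets necdin null replicate 2 alone against the wild type arrays. Of 198 other genes at a mean log2 signal of 14 or above, 191 were highest on that array. All 27 members in that range were too. All genes tested are therefore not a background matched for brightness, and the other bright genes were not counted in this fit. In that fit, where the lone array is assumed to vary like the others, 27 of 34 members had an unadjusted limma p under 0.05, against 7.41% of all genes, and 0 passed after adjustment (lowest adjusted p = 0.094).

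**Figure D1:**
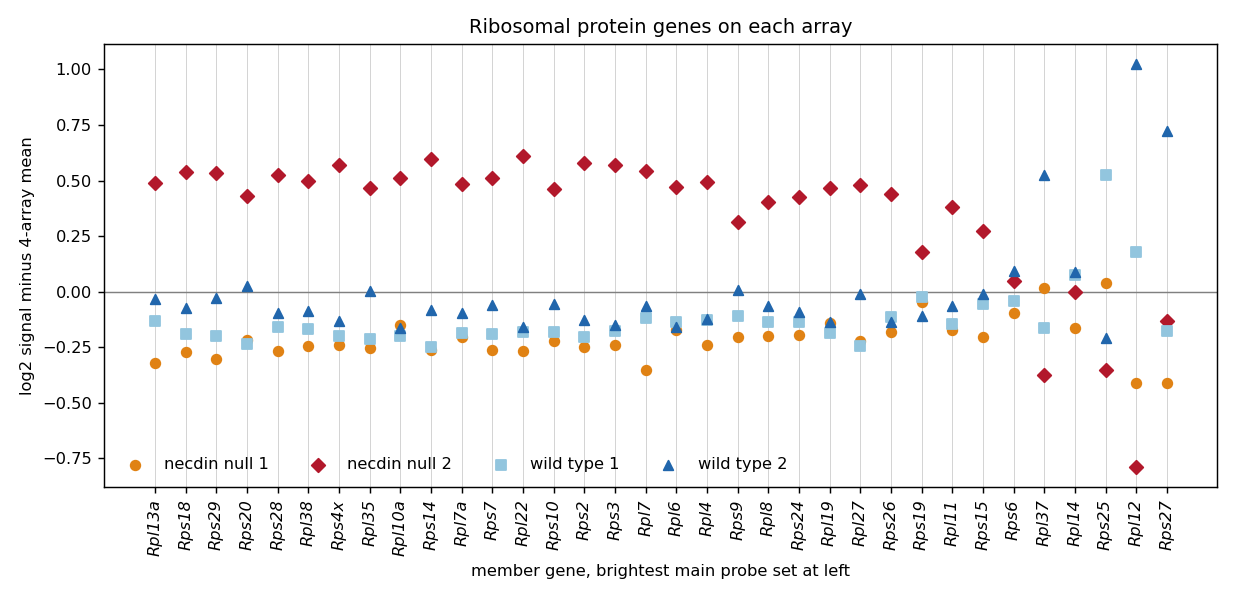
Log2 signal of each of the 34 tested ribosomal protein genes on each array, as deviation from the gene's mean over the 4 arrays, with genes ordered by the brightness of their main probe set. Necdin null replicate 2 (red diamonds) lies above the other arrays for 28 of 34 genes, while necdin null replicate 1 (orange circles) is the lowest for 26.

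In the limma test, 0 of 34 members passed an adjusted p of 0.05, as did 0% of all 12680 genes, and the lowest adjusted p of a member was 0.9985. At an unadjusted p under 0.05 there were 0 members higher, where 1.07% of all genes were, and 1 lower, Rpl12, where 1.95% of all genes were. The groups did not overlap for 1 member that was higher, Rpl10a, against 12.8% of all genes, and for 2 that were lower, Rpl12 and Rpl14, against 17.7%. Both shares of members were below the background of all genes.

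Rpl10a, a large subunit protein, had the largest log2 difference above 0 in the list. Its signals were 36284 and 57379 in the necdin null group against 35057 and 35912 in the wild type group (log2 difference 0.36, standard error 0.29). The lower necdin null array exceeded the higher wild type array by little, and without necdin null replicate 2 the difference was 0.03. Rpl22, an rRNA-binding protein of the large subunit needed for T and B cell development, gave 30548 and 56139 against 32348 and 32892. The groups overlapped, since necdin null replicate 1 was the lowest of the 4 arrays. Its log2 difference of 0.34 (standard error 0.31) was -0.09 without necdin null replicate 2.

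The next largest differences belonged to small subunit genes with the same order of arrays. Rps14, the small subunit gene whose loss of 1 copy underlies the anaemia of the 5q- syndrome, gave 33277 and 60316 against 33513 and 37626, a log2 difference of 0.34. Rps2, at the mRNA entry side of the small subunit, gave 30805 and 54767 against 31811 and 33472. For Rps4x, encoded on the X chromosome, the values were 36304 and 63618 against 37323 and 39078. In these 3 genes necdin null replicate 1 was below both wild type arrays and necdin null replicate 2 above both. Their log2 differences of 0.33 to 0.34 turned to -0.09, -0.08 and -0.07 without necdin null replicate 2.

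Genes at the other end of the list had dimmer probe sets. Rpl12, at the base of the stalk that recruits translation factors, gave 68.1 and 51.6 against 104.4 and 190.7. Both necdin null arrays were lower (log2 difference -1.20, standard error 0.52), with an unadjusted limma p of 0.047 (adjusted p = 0.9985). Its 1 probe set ends in plain _at and is far dimmer than the main probe sets of nearly all other members. A further 2 probe sets that list Rpl12 together with other symbols were not used. Rps27, a zinc finger protein of the small subunit, gave 48.2 and 59.4 against 57.5 and 110.5 from a similarly dim probe set (log2 difference -0.55, standard error 0.57), and the groups overlapped. Rpl37, a small zinc finger protein of the large subunit that can bind Mdm2, gave 5289 and 4025 against 4667 and 7517 (log2 difference -0.36), also overlapping.

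Rps25, a small subunit protein used in initiation at internal ribosome entry sites, gave 1042 and 793 against 1459 and 877, a log2 difference of -0.31 with overlapping groups. Rpl14 was lower in both necdin null arrays, at 4208 and 4708 against 4971 and 5017, a log2 difference of -0.17 (standard error 0.18). For Rps6, the substrate of S6 kinase, the values were 7601 and 8421 against 7903 and 8672 (log2 difference -0.05). Rpl14 and Rps6 were among the few members whose 4 arrays lay close together: their necdin null arrays differed by 0.16 and 0.15 on the log2 scale, where the median over members was 0.67.

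Members with and without a long pyrimidine run at the start site had close medians. The 14 tested genes with a run of at least 8 had a median log2 difference of 0.23 and exceeded necdin null replicate 1 on necdin null replicate 2 by a median of 0.65, and the 15 without had 0.25 and 0.66.

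Ribosomal proteins known to bind Mdm2 were a listed group of 13, of which 10 were tested. Their log2 differences were above 0 for 8 of 10 with a median of 0.23, and none passed the limma test. None had an unadjusted limma p under 0.05, where 1.07% of all genes were higher and 1.95% lower. No groups were apart, against 12.8% of all genes apart and higher and 17.7% apart and lower. Rpl11, which holds Mdm2 together with Rpl5 and the 5S rRNA, gave 15034 and 22073 against 15276 and 16194 (log2 difference 0.21, standard error 0.24). Rps7 gave 31562 and 54041 against 33191 and 36348. Rps15 gave 7502 and 10448 against 8340 and 8596, with a log2 difference of 0.06. In all 3 the wild type values lay between the necdin null values. Rpl6, Rps3 and Rps26 had log2 differences of 0.30, 0.33 and 0.25, and Rps20 had 0.21. After quantile normalization, 5 of the 10 were above 0 and the median was 0.01. Without necdin null replicate 2, 0 of 10 were above 0 and the median was -0.10.

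Among the Diamond-Blackfan anaemia genes, 10 of 17 listed were tested, and 9 were above 0 with a median log2 difference of 0.23. Rps19, the gene most often affected in that disease, had one of the smallest spreads in the list. Its signals were 18574 and 21730 against 18861 and 17765, and the groups overlapped (log2 difference 0.13, standard error 0.21). Rps24 gave 27875 and 42918 against 29034 and 29979, and Rps26 gave 20492 and 31499 against 21458 and 21132. Both followed the common order, with necdin null replicate 2 high. Rps28 and Rps29, both small proteins, had log2 differences of 0.25 and 0.23, and Rps10 and Rpl27 had 0.24 and 0.26. None passed the limma test. At an unadjusted limma p under 0.05 there were none, where 1.07% of all genes were higher and 1.95% lower. After quantile normalization 3 of the 10 were above 0 and the median was -0.02. Only 1 of the 10 was above 0 without necdin null replicate 2, with a median of -0.10.

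Large and small subunit genes had close medians on every array. The median log2 difference was 0.23 for the 16 large subunit genes, 13 of them above 0, and 0.23 for the 18 small subunit genes, 15 of them above 0. On necdin null replicate 2 the median deviation was 0.48 for the large and 0.45 for the small subunit, and on necdin null replicate 1 it was -0.21 and -0.23. On the wild type arrays the medians were -0.16 and -0.06 for the large and -0.18 and -0.08 for the small subunit. The large subunit median exceeded that of the small subunit by 0.01 to 0.03 on all 4 arrays, a gap many times smaller than the distance between arrays. After quantile normalization this gap ranged from -0.01 to 0.02 and no longer had 1 sign.

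**Figure D2:**
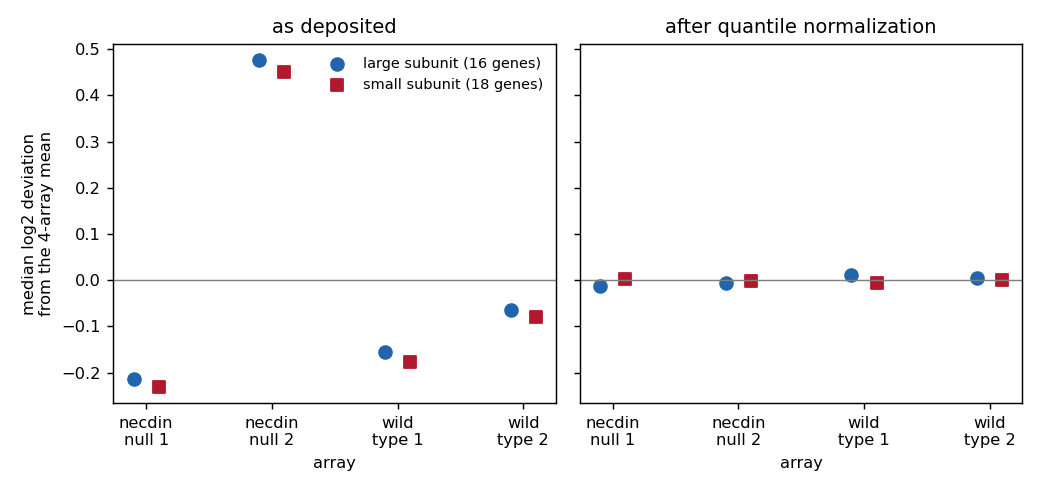
Median log2 deviation from the 4-array mean for large subunit (16 genes, circles) and small subunit genes (18 genes, squares) on each array, as deposited (left) and after quantile normalization (right). Both subunits sit at 0.48 and 0.45 on necdin null replicate 2 and within 0.02 of zero on every array after quantile normalization.

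The name of an Affymetrix probe set tells how its probes were designed. Plain _at marks probes meant for 1 transcript, _a_at marks those shared by transcripts of 1 gene, and _s_at and _x_at mark those that also match, wholly or in part, other transcripts. This matters for ribosomal protein genes because many processed pseudogenes carry nearly the same sequence. The main probe set was plain _at for 6 of the 34 tested genes, _a_at for 14, _x_at for 13 and _s_at for 1. With _x_at or _s_at, 13 of 14 genes were above 0 with a median log2 difference of 0.23, and with _a_at 14 of 14 with a median of 0.25. With plain _at, only 1 of 6, Rpl19, was above 0 and the median was -0.24.

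Over all 74 probe sets of the members that passed the filter, the same order held. The 34 _s_at and _x_at probe sets had a median log2 difference of 0.23, with 30 above 0, and the 23 _a_at probe sets had 0.23, with 21 above 0. The 17 plain _at probe sets had -0.12, with 6 above 0. The classes differed in brightness as well: the median mean log2 signal was 15.1 for _s_at and _x_at, 15.1 for _a_at and 8.32 for plain _at. Of the plain _at probe sets, those at a mean log2 of 12 or above (6) had a median difference of 0.07, and the 11 dimmer ones had -0.31. Conversely, the 28 _s_at and _x_at probe sets at 14 or above had 0.25, all above 0, and the 6 dimmer ones had -0.03. The part of brightness and that of probe design were not tested against each other.

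**Figure D3:**
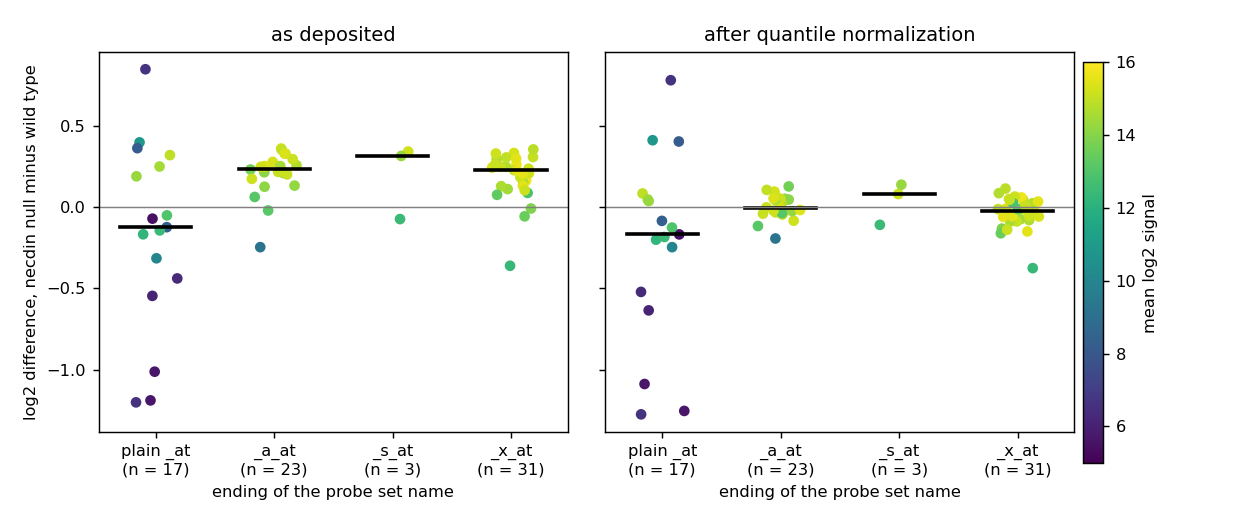
Log2 difference (necdin null minus wild type) of the 74 probe sets of ribosomal protein genes above the filter, by the ending of the probe set name, as deposited (left) and after quantile normalization (right). Black bars are medians and colour is the mean log2 signal; the _a_at, _s_at and _x_at probe sets are mostly bright and above zero as deposited, while plain _at probe sets are mostly dim and scatter widely.

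In 7 genes both a plain _at and an _s_at or _x_at probe set passed the filter, and in all 7 the plain one was dimmer. The differences had opposite signs in 3 of the 7, and the _s_at or _x_at value was the higher in 4. Rps10 showed the widest gap: the _x_at probe set gave a log2 difference of 0.24, and the plain _at probe set, at 45.3 and 22.4 against 104.2 and 44.7, gave -1.01. For Rps9 the order was the reverse, with 0.11 from the _x_at probe set and 0.85 from the plain one, at 195.9 and 84.8 against 65.1 and 75.1. Both plain probe sets were dim, the filter on low values being at a signal of 30.3, and their necdin null arrays differed about as much as the groups.

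Where both kinds of probe set were bright, their values were closer. Rpl22 had 0.34 from its _s_at probe set and 0.25 from its plain probe set, which gave 22058 and 30001 against 22612 and 20639. Rpl27 had 0.15 from its _x_at probe set and 0.19 from its plain one, at 20228 and 22826 against 19961 and 17734. In both, the plain probe set showed necdin null replicate 2 as the highest array, though by less: it exceeded necdin null replicate 1 by 0.44 and 0.17 on the log2 scale, against 0.67 as the median of the members' main probe sets. Rps20, Rpl35 and Rps24 had gaps of 0.33, 0.28 and -0.14 between the kinds, with dim plain probe sets. The probe sets of a gene did not always go one way: a second _s_at probe set of Rpl22 gave -0.07, and a second plain _at probe set of Rps24 gave -1.19. This Rps24 probe set was dim, at 94.45 and 7.78 against 59.3 and 90.1. Its difference came from the low value on necdin null replicate 2.

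Quantile normalization, which gives each array the same distribution of values, removed the common shift. It takes away any shift shared by the brightest genes, so this result does not bear on where the shift came from. The median log2 difference of the 34 members became -0.02, with 13 above 0 and 21 below, against 46% of all genes above 0, and 15 members changed sign. The members' median deviations then lay between -0.01 and 0.00 on all 4 arrays. Groups that did not overlap were now 6 higher and 6 lower of 34, against 12.8% and 17.8% of all genes, and 0 members passed the limma test. Median centring left a median of 0.15 and cyclic loess left 0.06, with 27 and 25 of 34 above 0.

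The values of single members after quantile normalization were small for the bright genes. Rpl10a stayed the highest at 0.10, with its groups apart, and Rpl19, Rpl22, Rps3 and Rps2 had 0.09, 0.08, 0.07 and 0.07. The groups were also apart for Rpl19, Rps3 and Rps2 and overlapped for Rpl22. Rps9 had -0.14, with both necdin null arrays below both wild type arrays. The members with the lowest log2 differences as deposited stayed below 0: Rpl12 had -1.28, Rps27 -0.64, Rpl37 -0.37, Rps25 -0.25 and Rpl14 -0.20. Of these, Rpl12, Rps27 and Rpl14 had lower values on both necdin null arrays than on both wild type arrays.

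**Figure D4:**
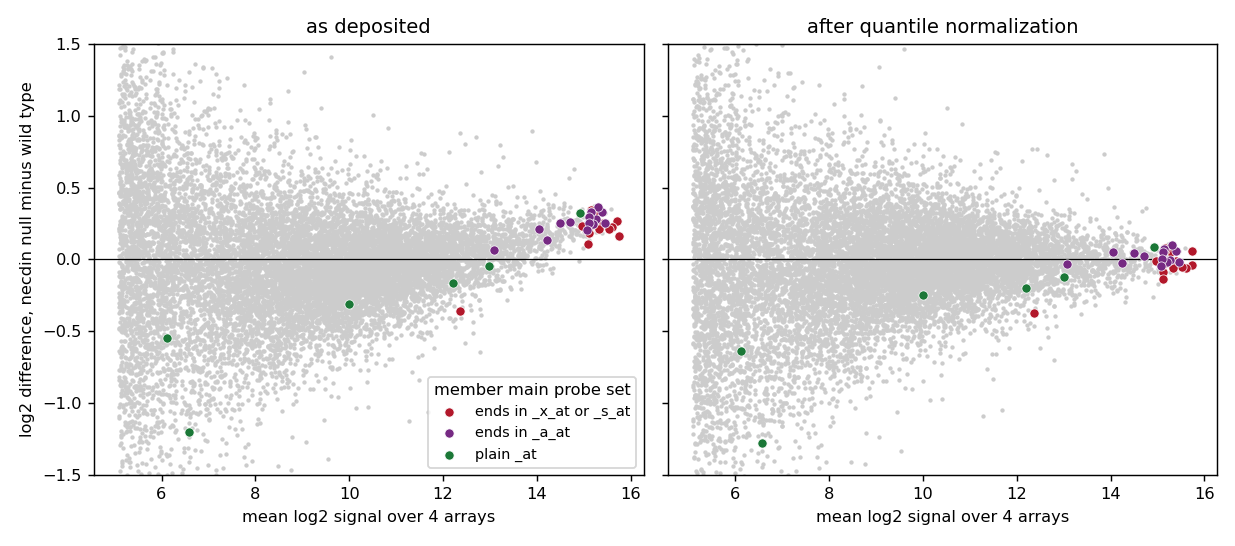
Log2 difference (necdin null minus wild type) against mean log2 signal for the 12680 tested genes (grey) and the 34 ribosomal protein genes (coloured by the ending of the main probe set), as deposited (left) and after quantile normalization (right). As deposited, 187 of 198 other genes at a mean log2 signal of 14 or above lie above zero, as do all 27 ribosomal protein genes in that range; 166 genes as deposited and 173 after quantile normalization are beyond the axis limit of 1.5.

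The shift on necdin null replicate 2 was not limited to ribosomal protein genes. Among 198 other genes with a mean log2 signal of 14 or above, 187 were above 0 with a median log2 difference of 0.20, and 191 were highest on necdin null replicate 2. The 27 members in the same range were all above 0 with a median of 0.25, and all 27 were highest on that array. Necdin null replicate 2 exceeded necdin null replicate 1 by a median of 1.42-fold in the other bright genes and 1.65-fold in the bright members. Without necdin null replicate 2, 61 of the 198 other bright genes were above 0 (median -0.05), and 3 of the 27 members (median -0.09). After quantile normalization both medians were near 0, at -0.01 and 0.00. Among 1071 other genes between 12 and 14 the ratio was 1.09-fold. Across the 34 members, the difference between these 2 arrays was larger where the mean log2 signal was higher (Spearman's rho 0.79, Pearson's r 0.77, as a description over probe sets that share the same arrays). The 3' to 5' ratios and the share of signal in the brightest probe sets were also highest on this array, and their part in the result was not tested.

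The other genes of the pathway were taken from lists. Of 23 further cytosolic ribosomal protein genes, 9 were tested, and all 9 were above 0 with a median log2 difference of 0.28 as deposited and 0.06 after quantile normalization. Rps3a1 gave 41984 and 60680 against 39058 and 41503, and Rplp2, one of the acidic stalk proteins, gave 35603 and 50916 against 33658 and 34858. Without necdin null replicate 2, 4 of 9 were above 0 and the median was -0.02. For both named genes, the 2 necdin null arrays were above the wild type arrays, with log2 differences of 0.33 and 0.31 (0.06 and 0.04 after quantile normalization). Of 9 ribosomal protein paralogues, 5 were tested, 3 above 0. Rpl39l had 35.6 and 355 against 29.1 and 67.8, and Rps4l had 114.2 and 17.3 against 73.7 and 135.8, so for both genes the necdin null arrays differed more than the groups.

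Genes that build ribosomes had lower brightness and no such common shift. Of 50 assembly and rRNA processing factors, 31 were above 0, with a median log2 difference of 0.06 as deposited and 0.05 after quantile normalization. The groups were apart for 12 higher and 3 lower genes of the 50, against 12.8% and 17.7% of all genes. Of the 50, 26 were above 0 without necdin null replicate 2, with a median of 0.03. Dkc1, the pseudouridine synthase that modifies rRNA, gave 5077 and 5082 against 3155 and 4034 (log2 difference 0.51, standard error 0.20), and Rrp1b, a nucleolar partner of protein phosphatase 1, gave 2002 and 1402 against 2924 and 4579 (-1.13, standard error 0.27). Dkc1 was higher and Rrp1b lower on both necdin null arrays, at unadjusted limma p of 0.029 and 0.0024 that did not pass adjustment. Of 17 tested genes of RNA polymerase I transcription, 8 were above 0 with a median of 0.00. Its second largest subunit gene, Polr1b, gave 2477 and 2536 against 3241 and 3935 (-0.51, standard error 0.19), and Taf1c, of the promoter selectivity factor, gave 714 and 729 against 1027 and 976 (-0.47, standard error 0.22). Both were lower on both necdin null arrays and neither passed adjustment.

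Translation factors and other genes with TOP mRNAs, with bright probe sets of their own, resembled the members: 13 of 16 were above 0, the median was 0.23 as deposited and 0.00 after quantile normalization, and 13 were highest on necdin null replicate 2, without which 4 of 16 were above 0 with a median of -0.06. Nap1l1, a histone chaperone, stood higher in both necdin null arrays at 20633 and 19815 against 13194 and 16014, without a high necdin null replicate 2 (log2 difference 0.48, standard error 0.21). Hnrnpa1, a splicing regulator, was lower at 3150 and 2617 against 4724 and 3619 (-0.53, standard error 0.21). Regulators of the translation of ribosomal protein mRNAs were above 0 in 3 of 9, with a median of -0.21. Among these, Ddit4, which restrains mTORC1 under stress, gave 547 and 138 against 1556 and 1187 (-2.29, standard error 0.53), and Eif4ebp2, a translation repressor, gave 1157 and 1333 against 1478 and 1517 (-0.27, standard error 0.20). None of the genes in these lists passed the limma test. Mitochondrial ribosomal protein genes (76 tested, chosen by symbol) had a median of 0.05 with 50 above 0, and 0.06 after quantile normalization; without necdin null replicate 2 the median was -0.02, with 37 above 0.

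Markers of the sorted cells were present but not level over the arrays. Kit gave 6049 and 3744 in the necdin null group against 6617 and 3976 in the wild type group. Cd34 gave 13478 and 15252 against 14722 and 13407. Of 10 listed genes of stem and early progenitor cells, Kit and Cd34 among them, 9 were tested, 5 above 0 with a median of 0.01. Replicate 2 minus replicate 1 had a median log2 difference of -0.19 in necdin null and -0.57 in wild type cells. Sca-1, encoded by Ly6a, was not analysed here. Neutrophil markers moved with the ribosomal protein genes in part. All 14 tested of 15 were above 0 with a median log2 difference of 0.43, and their signals summed to 102572 and 211294 for necdin null replicates 1 and 2, against 78632 and 146922 for the wild type replicates. After quantile normalization all 14 stayed above 0 with a median of 0.37, unlike the ribosomal protein genes. With necdin null replicate 2 left out, 6 of the 14 were above 0 and the median was -0.02. Wild type replicate 2 exceeded wild type replicate 1 by a median of 1.25 on the log2 scale, more than the groups differed. The sum was highest on the same array as the ribosomal protein genes, but the other necdin null array was not the lowest. For the other lists, 8 of 9 monocyte, 7 of 9 B lineage, 6 of 10 erythroid, 6 of 8 mast cell and basophil, 6 of 7 megakaryocyte and 2 of 10 T and NK markers passed the filter. Their summed signals ranged from 7601 to 14396 in necdin null and 5050 to 15716 in wild type cells for monocytes, from 1277 to 1624 and 1255 to 2593 for the B lineage, and from 3997 to 5878 and 4269 to 4548 for erythroid cells. The part of these cells in the ribosomal protein result was not tested.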

How the data were processed

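Total RNA of LSK cells was made into biotinylated cRNA, per the labels' protocols. The authors deposited 1 linear intensity per probe set and array, computed with MAS5 (version not given), per the submitters' processing notes. With 2% of the values trimmed from both ends, every array's mean is 500.0, so they give relative levels and not RNA per cell. Detection calls and saturation were not used here.

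Signals were taken as log2(signal + 3.80), the pseudocount being the 10th percentile of all values, without further normalization; log2 differences thus understate changes of dim genes. Of 45101 probe sets, 34958 had 1 gene symbol, 932 several and 9211 none, and only the first were named. Kept were genes whose mean log2 signal reached the 40th percentile (5.09). Necdin null was compared with wild type in limma 3.58.1 in R 4.3.3 (intensity trend, two-sided, Benjamini-Hochberg over 12680 genes, threshold 0.05); the code was tested on simulated arrays. Standard errors are limma's moderated ones.

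Members and lists were chosen with earlier results of these data known, so no test over a list was made. Named were members with an unadjusted p under 0.05, the 5 largest and 5 smallest differences, the 3 brightest and 3 dimmest, the Mdm2-binding and Diamond-Blackfan lists, 6 with the widest gap between probe sets, and 2 of smallest p from each other list; Rpl19 and Rps6 were added after their values were seen. Alternatives changed the pseudocount, filter, normalization, variance model and probe sets, blocked on replicate number, or omitted single arrays. Promoter sequences are RefSeq's.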

Additional observations from a re-analysis of the deposited data

How the results depend on the processing

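The number of genes called, 0, stayed at 0 when the pseudocount, filter, normalization, probe sets or intensity trend were changed. The replicate block gave 3 and, with quantile normalization, 0. Leaving out 1 array gave 0 to 4 (3 and 0 for necdin null replicates 1 and 2 left out, 2 and 4 for wild type replicates 1 and 2). No member was called in any of these. Replicate numbers were not treated as pairing: over 2 pairs, deviations of same-numbered arrays correlated at 0.11 across genes.

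The members' median log2 difference of 0.23 turned to -0.018 with quantile normalization, alone or with the block, to -0.069 with only plain _at probe sets and to -0.12 with both. For the large subunit these were -0.0055, 0.061 and -0.064, and for the small subunit -0.021, -0.12 and -0.12. The median of _s_at and _x_at probe sets turned to -0.017 with quantile normalization, alone or with the block. That of plain _at probe sets, -0.12, was -0.081 without the filter, 0.071 with a filter at the 60th percentile, -0.17 with quantile normalization (alone or with the block), -0.20 with median centring and -0.16 with cyclic loess. Leaving out each array gave -0.11 to 0.60 for the members, -0.11 to 0.62 and -0.12 to 0.57 for the large and small subunit, -0.10 to 0.58 for _s_at and _x_at and -0.11 to -0.067 for plain _at probe sets. The low value came without necdin null replicate 2, except for plain _at, where it came without wild type replicate 1. Quantile normalization without necdin null replicate 2, chosen after seeing the data, gave -0.0088 for the members, -0.016 and -0.0052 for the large and small subunit, -0.011 for _s_at and _x_at and -0.086 for plain _at. Apart from probe set choice and the filter, where fewer or more probe sets enter, the cause was not tested. Of 27 named members tested, 11 changed sign with quantile normalization and 20 without necdin null replicate 2.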

Other observations

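The array also carries 3 control probe sets for 18S rRNA, the RNA of the small subunit, which carry no gene name here and were left out of the tests. All 3 were brighter on both necdin null arrays than on both wild type arrays. The 5' probe set gave 17065 and 28054 against 9228 and 13096, a log2 difference of 0.99, and the middle probe set gave 5430 and 6066 against 3406 and 3977, a difference of 0.64. The 3' probe set gave 6437 and 7547 against 6034 and 6374, a difference of 0.17. They kept their direction after quantile normalization, at 0.85, 0.62 and 0.12, where 15 of the 34 ribosomal protein genes changed sign. The 18S rRNA has no poly(A) tail, so its signal after oligo(dT)-primed labelling, which is standard for such arrays, need not follow the amount of ribosomes. The difference was noticed in the data, and was not tested.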
